A study of Arabidopsis thaliana with 8 samples.

Results

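Binding of the bZIP transcription factor GBF2 was examined at 43 Arabidopsis thaliana genes that sense stress of the endoplasmic reticulum (ER), degrade or move its proteins, oxidise them, or build and read N-glycans. The genes were listed by identifier and role, with earlier results of these data known, and a peak was counted for a gene when the authors' files assigned it to that gene. Of the 43 genes, 4 (9.30%) had a GBF2 peak in at least 1 list, as did 2.35% of the 27444 protein-coding nuclear genes examined in all. They were SAR1B, ERD2, ALG3 and NAC089, and the other 39 genes had none.

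The peaks come from chromatin immunoprecipitation and sequencing of whole seedlings of the Col-0 background carrying pGBF2:GBF2-Ypet, which is GBF2 fused to the fluorescent protein Ypet and driven by its own promoter. All groups share this genotype. Treatment began at an age of 5 days and lasted 6 h, with tunicamycin at 0.5 µg/mL or with DMSO, its solvent, and chromatin was precipitated with an antibody against GFP or kept as input, with 2 libraries in each of the 4 groups. The labels call the libraries biological replicates, name no mutation of the resident GBF2 gene, and describe a move to fresh agar plates after treatment without giving the time to harvest. The data are 3 peak lists with no values per library: 320 DMSO peaks, 767 tunicamycin peaks and 502 peaks in a list named tunicamycin-specific. Depth and spread between replicates are therefore unknown and no difference between treatments could be tested. Tissue markers cannot be checked in peak lists either.

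Proteins enter the ER through the SEC61 channel, receive a preassembled glycan from the oligosaccharyltransferase, and are folded, retained, exported or sent for degradation according to how that glycan is trimmed. Tunicamycin blocks GPT, the enzyme that makes the first sugar-lipid of this pathway, so that unglycosylated proteins accumulate. Plants sense this load through IRE1, which splices the mRNA of bZIP60, and through bZIP17 and bZIP28, which leave the ER membrane after proteolysis and enter the nucleus. GBF2 belongs to the G-box binding bZIP factors.

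The transport genes SAR1B and ERD2 carried peaks in both treatments, and the sensor gene NAC089 and the glycan assembly gene ALG3 in the tunicamycin list alone. In the DMSO list 2 of the 43 genes had a peak, or 4.65%, where 0.849% of all protein-coding genes had one. In the tunicamycin list 4 of the 43 had a peak, or 9.30%, where 2.27% of all protein-coding genes had one. Tunicamycin peaks that overlapped no DMSO peak lay at 2 of the 43, or 4.65%, beside 1.49% of all protein-coding genes. The authors' specific list held the same 2 genes, beside 1.52% of all protein-coding genes. Counts this small describe single genes of a list drawn up with earlier results known, and no test of the list was made.

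**Figure D1:**
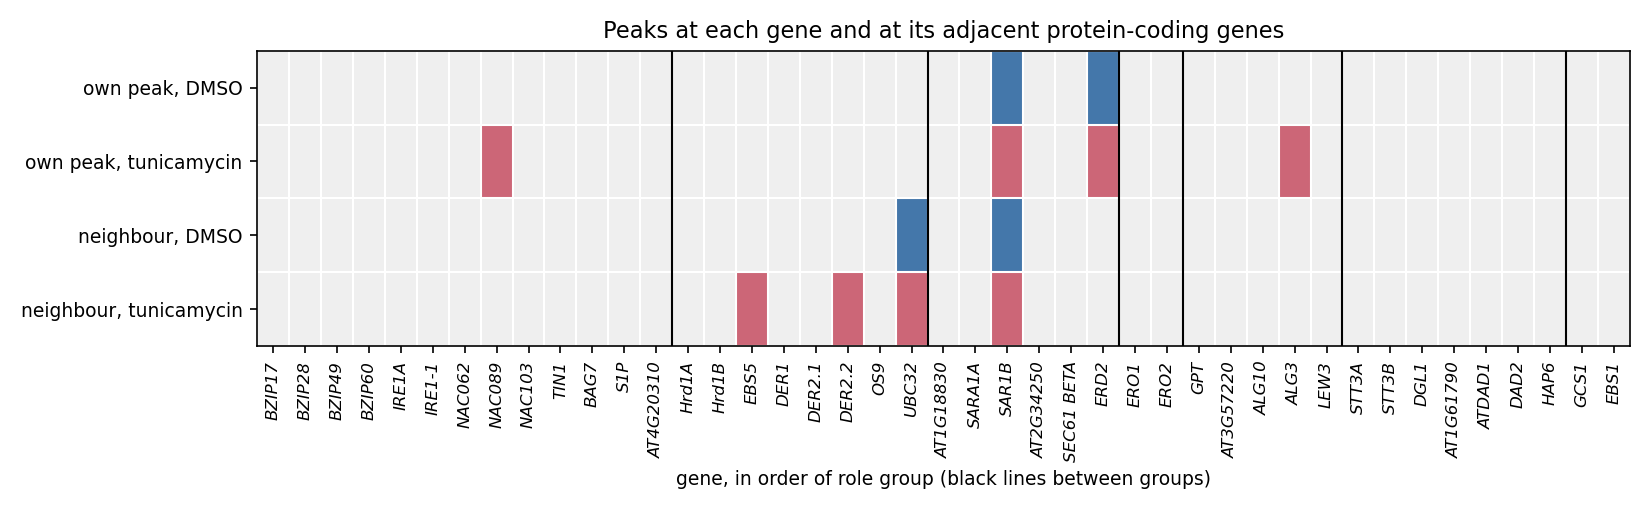
Grid of the 43 genes (columns, ordered by role group, symbols as in the gene table) against 4 rows, which show a peak assigned to the gene itself in the DMSO list (blue) or tunicamycin list (red) and a peak assigned to an adjacent protein-coding gene in each list. The 4 genes with a peak of their own are NAC089, SAR1B, ERD2 and ALG3. The 3 unbound genes with a bound protein-coding neighbour, EBS5 (HRD3A), DER2.2 and UBC32, are listed under ER-associated degradation. With neighbours of all gene kinds, AT1G18830 of the transport group takes the place of DER2.2.

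Among the 6 genes of ER translocation, export and retention, SAR1B and ERD2 had peaks in both lists. SAR1B (AT1G56330) codes for a small GTPase that starts the assembly of COPII vesicles at the ER. Its DMSO peak lay at chromosome 1, 21088185 to 21089062 (TAIR10 coordinates throughout), and had a score of 3.29. Its tunicamycin peak lay at chromosome 1, 21088218 to 21089219, and had a score of 2.90. This score is a number deposited with each peak; it has no stated unit and was compared within a list only. Within the DMSO list SAR1B stood at rank 97 of 320, in the top 30.3%. Within the tunicamycin list it stood at rank 143 of 767, in the top 18.6%, which was the highest place of the 4 genes. The peaks shared 845 bp, which is 96.2% of the DMSO peak and 84.3% of the tunicamycin peak, so both lists mark nearly the same stretch.

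ERD2 (AT1G29330) codes for the receptor that returns ER-resident proteins from the Golgi by their retention signal. Its DMSO peak at chromosome 1, 10260540 to 10261715, had a score of 2.71. Its tunicamycin peak at chromosome 1, 10260696 to 10261705, had a score of 2.46. The tunicamycin peak lay wholly inside the DMSO peak and covered 85.9% of it. ERD2 ranked 233 of 320 under DMSO, below the median score. Under tunicamycin ERD2 ranked 392 of 767, just below that list's median score of 2.47. The lists differ in length, so places in the 2 lists show no gain or loss.

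The other 4 genes of this group had no peak. They were SARA1A, a close relative of SAR1B, AT1G18830 (SEC31A), which codes for a coat protein of COPII vesicles, SEC61 BETA, a subunit of the translocation channel, and AT2G34250, which the gene table does not name. Among relatives listed as additional genes, ERD2B, the second ERD2 gene, SAR2, another SAR1 gene, and SEC31B (AT3G63460) had no peak either. Of the 12 additional genes with this role, 1 had a peak, AT3G60540, in the tunicamycin list alone (rank 687 of 767).

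In the N-glycan assembly group 1 of 5 genes had a peak, and that peak was found under tunicamycin. Of the 10 additional genes with this role, 1 had a peak, AT2G44660, and it had one in both lists. ALG3 (AT2G47760) codes for the mannosyltransferase that adds the first mannose on the lumenal side of the ER to the lipid-linked glycan. Its peak at chromosome 2, 19567923 to 19568949, was 1027 bp long, had a score of 2.52 and stood at rank 341 of 767. No DMSO peak overlapped it, and the authors' specific list held it with the same position and score. Among the 490 tunicamycin peaks that overlapped no DMSO peak it stood at rank 132, in the top 26.9%. GPT (AT2G41490), the target of tunicamycin, had no peak in any list, nor had AT3G57220, the second GPT gene. ALG10, a glucosyltransferase of the last step of assembly, and LEW3, a mannosyltransferase of the cytosolic side, had none either.

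In the group of sensors and transcription factors NAC089 (AT5G22290), which codes for a membrane-anchored NAC factor linked to cell death under ER stress, was the bound gene among 13. Its tunicamycin peak at chromosome 5, 7377290 to 7378086, was 797 bp long, had a score of 2.51 and stood at rank 347 of 767. It too overlapped no DMSO peak, was in the authors' specific list, and stood at rank 134 of the 490 peaks without an overlap. ALG3 and NAC089 thus had nearly equal places, both above the median score of 2.35 of such peaks and below the highest, 3.51. The other 12 genes of the group, BZIP17, BZIP28, BZIP60, IRE1A and IRE1-1 included, had no peak. Among them were BZIP49, the third bZIP gene of the membrane-anchored type, NAC062, another membrane-anchored NAC gene, NAC103, a NAC gene downstream of bZIP60, S1P, the protease that cleaves the anchored bZIP factors, BAG7, an ER co-chaperone gene, TIN1, named for its induction by tunicamycin, and AT4G20310, which the gene table does not name.

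**Figure D2:**
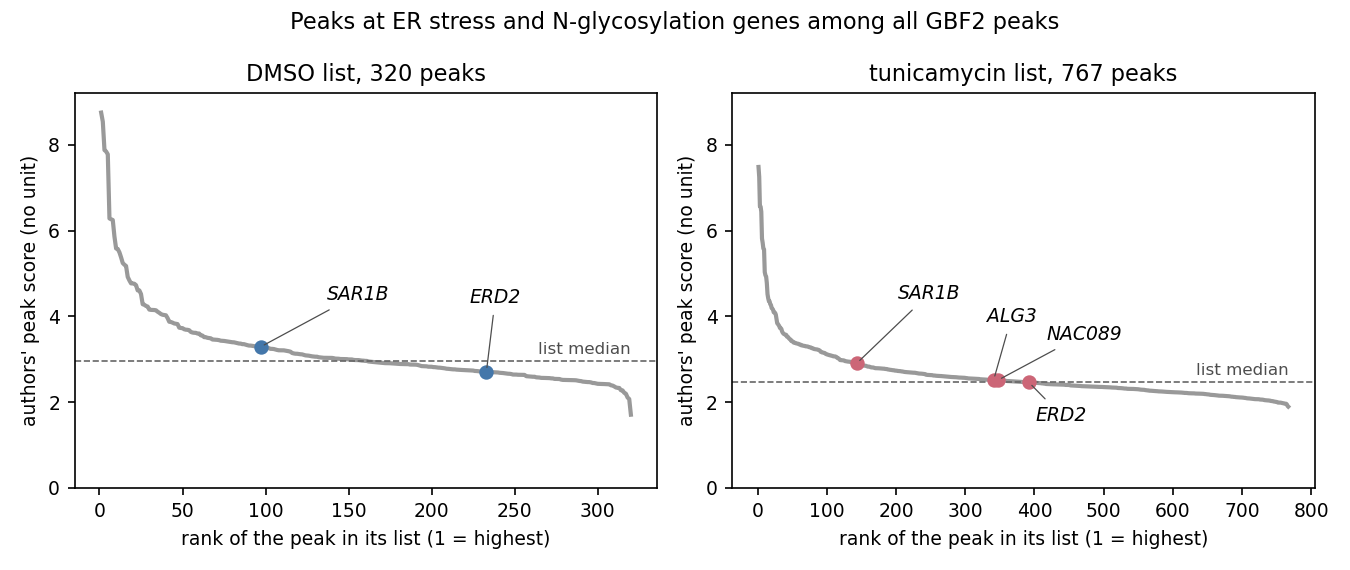
Authors' peak score (vertical axis, no unit) against rank within the list (horizontal axis, 1 is highest) for the 320 DMSO peaks and the 767 tunicamycin peaks (grey lines), with the peaks at the 4 genes as points and the list median as a dashed line. SAR1B lies above the median in both lists. ERD2 lies below it in the DMSO list and just below it in the tunicamycin list, where ALG3 and NAC089 lie just above it.

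Apart from SAR1B under tunicamycin, the scores of the peaks at these genes lay between the quartiles of their lists. SAR1B, at 2.90, lay above the upper quartile of the tunicamycin list, 2.75. The 4 tunicamycin peaks had a median score of 2.51, beside 2.47 over all 767 peaks and 2.46 over the 583 peaks classed as promoter (up to 1 kb). The 2 DMSO scores, 3.29 and 2.71, lay on either side of the median of that list, 2.96. Scores reached 8.75 under DMSO and 7.49 under tunicamycin, far above any peak at these genes. Lengths of the 4 tunicamycin peaks ran from 797 to 1027 bp, beside a median of 878 bp over the list. The DMSO peaks were 878 bp (SAR1B) and 1176 bp (ERD2) long, the second above that list's upper quartile of 1156 bp. The authors classed all 6 peaks as promoter (up to 1 kb), as they did 69.1% of all DMSO peaks and 76.0% of all tunicamycin peaks.

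**Figure D3:**
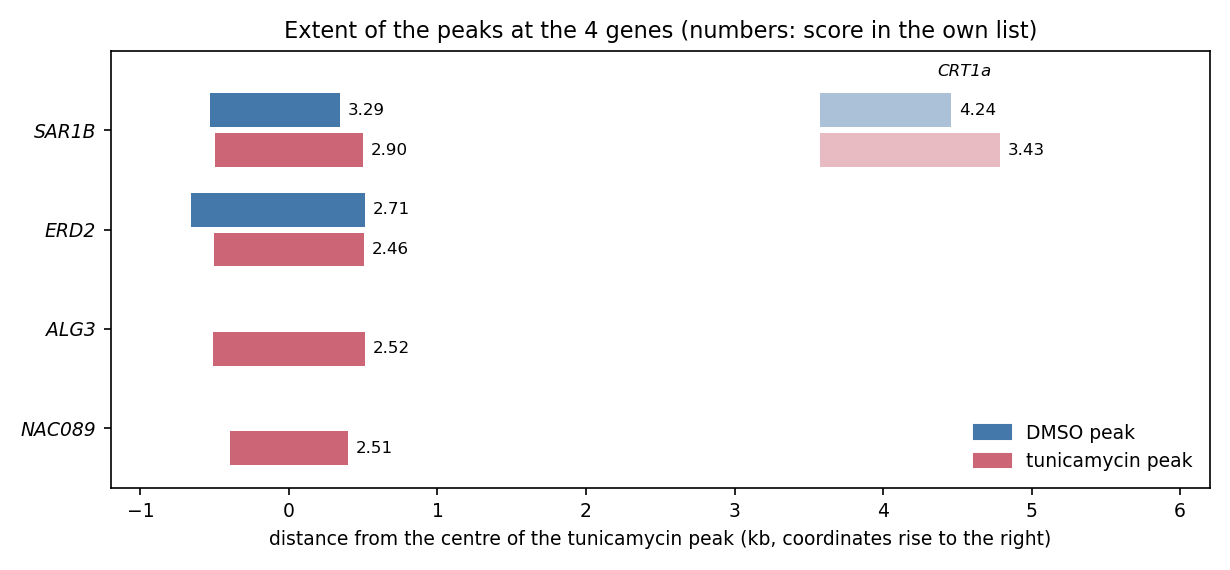
Extent of the DMSO peaks (blue) and tunicamycin peaks (red) at the 4 genes, in kb from the centre of each tunicamycin peak, with the score beside each bar and the peaks of the adjacent gene CRT1a in pale colours. SAR1B and ERD2 have overlapping peaks in both lists, ALG3 and NAC089 have a tunicamycin peak alone, and the CRT1a peaks lie 3.07 kb (tunicamycin) and 3.23 kb (DMSO) beyond those of SAR1B.

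The neighbours of the bound genes differed. By the order of genes in the reference table, SAR1B adjoins the calreticulin gene CRT1a (AT1G56340), whose chaperone product binds glucose-tagged glycans, and CRT1a had peaks of its own in both lists. It scored 4.24 under DMSO (rank 28) and 3.43 under tunicamycin (rank 49). Between the peaks of SAR1B and CRT1a lay 3.23 kb of sequence under DMSO and 3.07 kb under tunicamycin. The nearest other peak lay within 5 kb for 19.4% of DMSO peaks and 14.9% of tunicamycin peaks. These shares include peaks given to the same gene, as the 320 DMSO peaks fall on 292 genes and the 767 tunicamycin peaks on 744. Of the 622 protein-coding genes with a tunicamycin peak, 48 (7.72%) adjoined another, and of the 233 with a DMSO peak 11 (4.72%) did. Both genes are on the anti-sense strand per the files, so the start of SAR1B points to CRT1a and that of CRT1a points away.

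The other bound genes had no bound protein-coding neighbour, and their nearest peaks of the tunicamycin list lay 25.9 kb (ERD2), 76.2 kb (ALG3) and 105 kb (NAC089) away. All 4 bound genes are on the anti-sense strand. Counted by peak, the assigned gene was on that strand for 56.5% of all tunicamycin peaks and 59.5% of those classed as promoter (up to 1 kb). Of the 12 genes with a peak that are named here, neighbours and non-coding genes included, 11 are on that strand. Whether the authors' assignment favours the anti-sense gene where the starts of adjacent genes face each other was not tested, and a gene counted as unbound, such as UBC32, may share a peak given to its neighbour. The protein-coding gene that the start of each bound gene faces is therefore the next at higher coordinates. For ALG3 this is TSPO (AT2G47770), a gene for a membrane protein known to be induced by abscisic acid and osmotic stress. When genes of all kinds are counted, the long non-coding RNA gene AT2G09965 comes before TSPO, whose strand was not read. For ERD2 it is PUB17, a U-box ubiquitin ligase gene, and for NAC089 it is NIT4, a nitrilase gene. The files give 1 gene per peak, so the lists do not show whether the ALG3 peak also lies at the start of TSPO.

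None of the 8 genes of ER-associated degradation had a peak, where 2.35% of all protein-coding genes had one in at least 1 list. Of the 8, 3 adjoined a protein-coding gene with a peak. The others without a bound neighbour were Hrd1A and Hrd1B, the membrane ubiquitin ligases, DER1 and DER2.1, derlins of the exit channel, and OS9, a lectin that recognises trimmed glycans. Over the 39 unbound genes, 3 (7.69%) adjoined a protein-coding gene with a tunicamycin peak, beside 4.35% of all protein-coding genes without a peak in either list. For DMSO peaks the count was 1 of 39 (2.56%), beside 1.63%.

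UBC32, the ubiquitin-conjugating enzyme gene of the degradation machinery, adjoined AT3G16990, which had peaks in both lists. The DMSO peak lay at chromosome 3, 5796620 to 5797470, with a score of 2.78 (rank 210). The tunicamycin peak lay at chromosome 3, 5796654 to 5797448, with a score of 2.94 (rank 132), a higher place in the list than any of the 4 bound genes. AT3G16990 lies at lower coordinates than UBC32 and on the anti-sense strand, so its start faces UBC32.

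EBS5 (AT1G18260, also HRD3A), the adaptor that brings substrates to the Hrd1 ligase, adjoined ATLP-1 (AT1G18250). ATLP-1 had a tunicamycin peak without a DMSO overlap at chromosome 1, 6278744 to 6279483, with a score of 2.41 (rank 441), and its start also faces the degradation gene. DER2.2, a derlin gene, adjoined the cardiolipin synthase gene CLS (AT4G04870). The CLS peak, again without a DMSO overlap, lay at chromosome 4, 2463722 to 2464581, with a score of 2.60 (rank 270), and the start of CLS faces away from DER2.2. The authors classed each of these peaks as promoter (up to 1 kb) of the neighbour. Distances to UBC32, EBS5 and DER2.2 themselves were not measured here. When genes of all kinds were counted, CLS was no longer adjacent to DER2.2. In the strongest 50% of the tunicamycin list EBS5 dropped out.

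The remaining groups had neither a peak nor a bound protein-coding neighbour. All 7 genes of the oligosaccharyltransferase, which moves the glycan onto proteins, were in this state: STT3A and STT3B for the catalytic subunits and DGL1, AT1G61790 (OST3/6), ATDAD1, DAD2 and HAP6 for the others. So were ERO1 and ERO2, whose products oxidise protein disulfide isomerases, GCS1, the glucosidase that trims the new glycan first, and EBS1, the glucosyltransferase that tags misfolded glycoproteins. Over all protein-coding genes, 2.35% had a peak in at least 1 list. Of those without a peak in the DMSO or tunicamycin list, 4.35% adjoined a protein-coding gene with a tunicamycin peak. Absence in groups or pairs this small is therefore no result about them. Of the paired genes, SAR1B was bound and SARA1A was not. Both IRE1 genes, both Hrd1 genes, all derlin genes, both STT3 genes, both DAD genes, both ERO genes and both GPT genes lacked a peak. A gene without a peak is one at which the authors' threshold was not passed, and weaker binding was not measurable in these files.

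The same pathways were followed in 32 further genes. Of these, 2 (6.25%) had a tunicamycin peak and 1 (3.12%) a DMSO peak, beside the 2.27% and 0.849% of all protein-coding genes. AT2G44660, listed under N-glycan assembly and not named in the gene table, had peaks in both lists. Its DMSO peak at chromosome 2, 18422588 to 18424224, had a score of 3.08 (rank 126), and its tunicamycin peak at chromosome 2, 18422627 to 18424109, had a score of 3.12 (rank 100), in the top 13.0% of its list. In the tunicamycin list this was a higher place than that of any of the 43 genes, while in the DMSO list SAR1B stood above it. AT3G60540, listed under ER translocation, export and retention and also without a name in the table, had a tunicamycin peak without a DMSO overlap. This peak lay at chromosome 3, 22375600 to 22376334, scored 2.13 and ranked 687 of 767, near the bottom of the list. The other 30 had no peak, among them CDC48, the ATPase that extracts proteins for degradation, PSL4 and RSW3, the subunits of the next trimming glucosidase, and ALG12, a mannosyltransferase acting after ALG3.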

How the data were processed

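Per the submitters' processing notes, the genome build was TAIR10 and the tools were MACS2 2.1.2, Bowtie 1.1.2, SAMtools 1.8, cutadapt 1.8.1 and FastQC 0.11.5. How replicates were pooled, how input was used, the roles and settings of the tools and the threshold for peaks are not given in the sources used. The authors deposited a score for each peak, called signal value per the file headers, together with its length, position class, gene and gene strand. Scores were used within a list only. Peak length equals end minus start plus 1 in 100% of rows, so both end positions were counted as part of the peak.

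Peaks overlapping by at least 1 bp were called shared. Gene names, kinds and order were read from RefSeq's gene table for TAIR10.1, in which all 43 genes, 285 of 292 DMSO, 727 of 744 tunicamycin and 482 of 492 specific gene identifiers matched. Its coordinates were not set against peaks. Neighbours are the nearest protein-coding genes on each side. The strand code, 2 for anti-sense per the file headers, gave the side on which a gene starts. Without values per library no test was made, and no interval is given since depth is unknown. The 43 genes, their role groups and the 32 further genes were chosen with earlier results of these data known. Every gene with a peak is named, with its bound neighbours. Promoter motifs and protein identities, foreseen in the design, were not examined, since no sequences were used here. Overlap and neighbour functions were tested on simulated data. Alternatives changed the position class, the overlap rule, the gene kinds, the reach of neighbours and the part of a list used (its strongest 50%). Computation used matplotlib 3.10.9, SciPy 1.17.1, numpy 2.4.6 and pandas 2.3.3 under Python 3.11.15.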

Additional observations from a re-analysis of the deposited data

How the results depend on the processing

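With the strongest 50% of the DMSO list, 1 gene with a peak was left (SAR1B) and 0 unbound genes adjoined a bound gene, since the peaks of ERD2 and AT3G16990 rank lower. The tunicamycin count fell from 4 to 3 in the strongest 50%, without ERD2, and stayed at 4 with promoter peaks (up to 1 kb) alone. ALG3 and NAC089 remained the 2 genes with tunicamycin peaks alone under the 50% overlap rule and with the strongest 50% of each list. The authors' specific list also held these 2, with the same positions and scores as the tunicamycin list, so it is no independent check. Its highest score, 5.82, exceeded the 3.51 reached by tunicamycin peaks without a DMSO overlap. It also has 502 peaks, beside the 490 tunicamycin peaks that overlap no DMSO peak. The specific list thus also holds peaks that overlap a DMSO peak. Unbound genes next to a tunicamycin-bound gene came to 3 with 2 genes on each side, to 2 in the strongest 50% (DER2.2 and UBC32), and to 3 with genes of all kinds, where AT1G18830 (SEC31A), beside a tRNA gene, took the place of DER2.2. Over genes of all kinds, 0.752% had a DMSO peak and 1.92% a tunicamycin peak. Ranking among promoter peaks only, an alternative chosen after seeing the data, put SAR1B in the top 17.7% and ERD2 in the top 50.1% of the tunicamycin list. The shorter promoter window was not run, since no sequences were used. No paired analysis was possible because the lists hold no values per library, and no replicate could be left out for the same reason.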

Other observations

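When genes of all kinds were counted as neighbours, peaks at non-coding genes came into view near 2 further unbound genes, both named after their values were seen. AT1G18830 (SEC31A) adjoined AT1G18820, a leucine tRNA gene with a tunicamycin peak at chromosome 1, 6488291 to 6489385, with a score of 2.41 (rank 438) and no DMSO overlap. That gene is on the sense strand at lower coordinates, so its start faces away from SEC31A. TIN1 had AT5G64501, a transcribed pseudogene, at 2 places to its lower side, with a DMSO peak at chromosome 5, 25783729 to 25784652 (score 2.95, rank 162) and a tunicamycin peak at chromosome 5, 25783747 to 25784816 (score 2.80, rank 168). The start of AT5G64501 faces TIN1, and another gene lies between them in the table.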
